A study of Mus musculus with 6 samples.

Results

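The subject is the hepatic transcripts of early complement, blood coagulation and fibrinolysis, 39 genes chosen by their function and looked up by symbol in a table of 16135 genes. All 39 were in the table. They cover the start of the complement cascade up to its convertases, the coagulation factors, the 3 fibrinogen chains, the plasmin system and the inhibitors of each. The values come from whole liver of ethanol-fed mice of 2 genotypes, 3 libraries each. The ACSS2-flox mice carry the floxed Acss2 gene and serve as the control, and the ACSS2-HKO mice lack ACSS2, the enzyme that makes acetyl-CoA from acetate, in hepatocytes. Every library came from a liver after 10 days on a Lieber-DeCarli ethanol liquid diet and 1 ethanol binge, so no library shows the unexposed liver. The sources used here name no Cre driver, strain, sex or age, and do not say whether the libraries of a genotype are separate animals. The p-values thus rest on a spread between samples that may be technical in part. The groups are called control and knockout from here on.

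Complement and coagulation are chains of serine proteases that circulate as inactive zymogens, each step activating the next. Complement is triggered by antibody-bound C1 or by lectins that bind microbial sugars, and both routes cut C4 and C2 to build a convertase that cleaves C3, while factor B and properdin drive an amplification loop. Coagulation ends with thrombin turning fibrinogen into fibrin, and plasmin dissolves the clot. The hepatocyte makes most of these plasma proteins, and several of them are acute phase proteins whose synthesis climbs under interleukin-6.

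The table gives FPKM, fragments scaled by the authors to gene length and to the library total. Whole fragment counts could be recovered from these values, with library totals between 33717125 and 39474527. On the first principal component of log2(FPKM + 1), control replicate 1 lay at -47.7 and replicate 3 of the knockouts at 27.6, with the other 4 libraries between 2.51 and 8.49. Values without these libraries are therefore given beside the main results. Acss2 itself read 87.8, 61.5 and 58.5 FPKM in control livers and 50.6, 38.4 and 45.7 FPKM in knockout livers, lower in each of the latter. The transcript was not absent, as the knockout mean was 0.648 of the control mean. The hepatocyte markers were the most abundant of the marker lists, with Alb at 38187 FPKM or more in every library. Markers of T and B cells and of platelets summed to at most 6.36 and 3.60 FPKM in any library. In control replicate 1 the 8 endothelial markers summed to 38.4 FPKM, against 123 to 181 FPKM in the other libraries.

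Of the 5 genes that build the C3 convertases, 4 read higher without overlap in knockout livers than in control livers, and 2 of the 3 fibrinogen chains did too. Of all tested genes, 12.5% did so. With median-ratio scaling, described below, only C2 of these genes stayed free of overlap (6.37% of all genes). C3, C4b, C2 and the properdin gene Cfp were 1.64-fold to 1.94-fold higher by means, and Fga and Fgg 1.59-fold and 1.44-fold higher. The factors of the clotting cascade itself, from prothrombin to factor X, all overlapped. Their knockout means ran from 0.98 (F5) to 1.22 (F7) of the control mean. Prekallikrein read lower with overlap. No member passed the adjusted threshold. By limma on log2(FPKM + 1), with Benjamini-Hochberg adjustment over the 9818 genes whose mean reached 1 FPKM, 0 genes had an adjusted p under 0.05 (0% of those tested). The adjusted p of the members ran from 0.637 to 0.996. Every statement of a higher or lower level below is therefore a description of these 6 libraries.

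**Figure D1:**
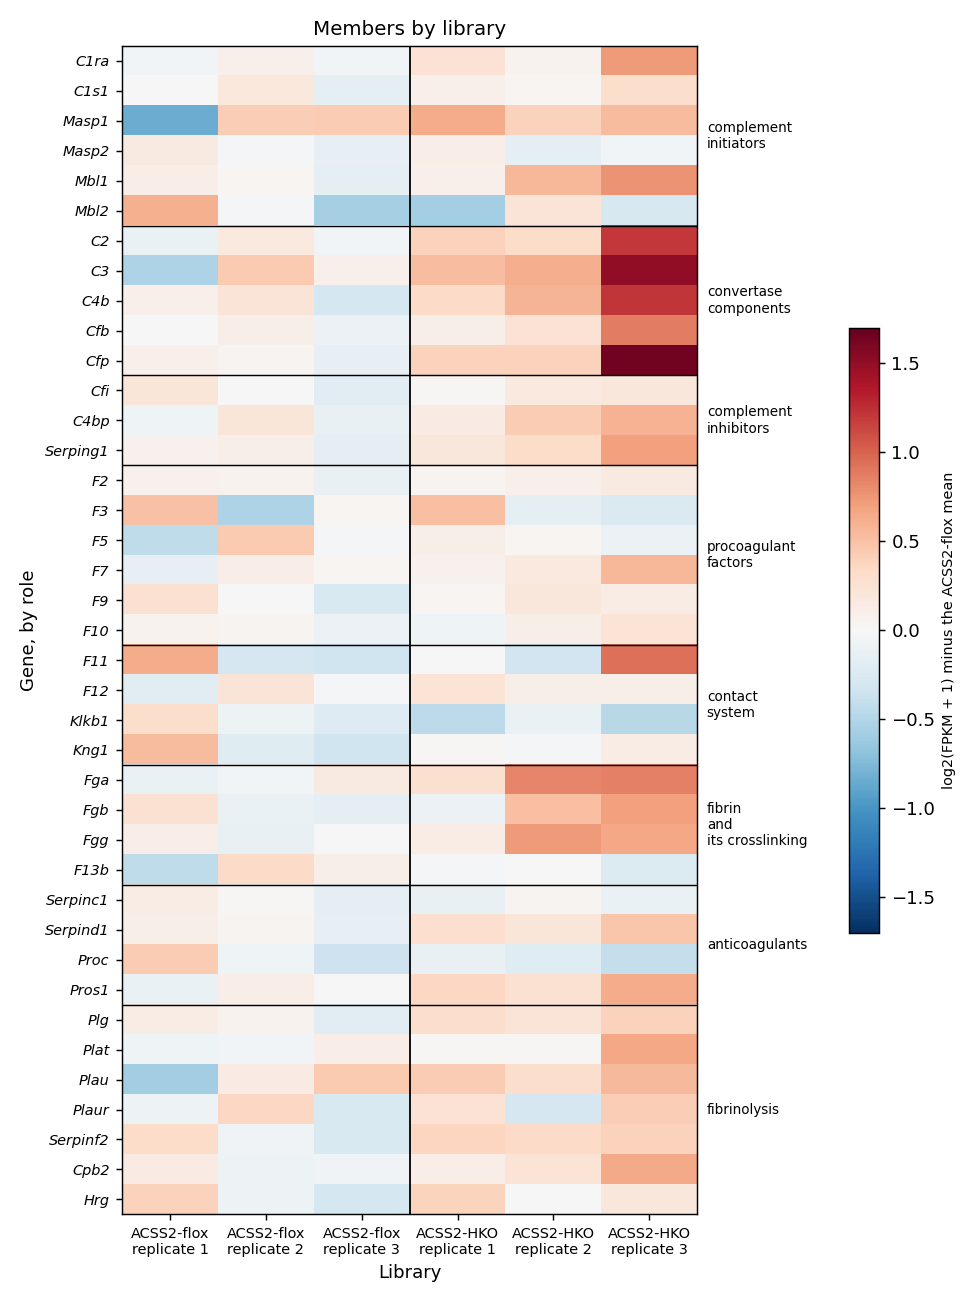
Each row is 1 of the 39 genes, grouped by role, and each column 1 library; the colour is log2(FPKM + 1) minus the mean of the 3 ACSS2-flox libraries, on a scale from -1.7 to 1.7. The convertase components are darkest in ACSS2-HKO replicate 3, and the fibrinogen chains in ACSS2-HKO replicates 2 and 3.

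Of the 39 genes, 37 passed the filter and were tested. The exceptions, Plat and Plaur, are described with the plasmin system. Among the tested members 31 had a positive log2 fold change and 6 a negative one, beside 66% positive over all genes. Their median log2 fold change (knockout minus control) was 0.30, beside 0.10 for all tested genes. Groups did not overlap for 11 of the 37, all higher in knockout livers, which is 29.7% beside 12.5% of all tested genes. At an unadjusted limma p under 0.05 there were 6 members, all higher (C2, C3, C4b, Cfp, Fga and Pros1), which is 16.2% beside 6.09% of all genes. No member was lower by either measure, beside 1.5% of all genes at that p and 2.94% without overlap.

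These counts leaned on single libraries and on the scaling. Without knockout replicate 3, 0 members were at an unadjusted p under 0.05 (2.87% of all genes were higher). Without control replicate 1 there were 2 (5.11% of all genes), without control replicate 2 there were 3 (5.45%), and without control replicate 3 there were 2 (5.64%). Without knockout replicate 2 there were 4 (5.9%), and without knockout replicate 1 the count rose to 7 (5.02%). With both distant libraries left out there were 2, Cfp and Serpinf2 (5.37% of all genes). Without knockout replicate 3, 11 members were free of overlap (16.8% of all genes), and 18 without control replicate 1 (16.6%) or without both (23.4%), where fewer libraries make separation easier. Median-ratio scaling divided the control libraries by 0.781, 0.997 and 1.068, and the knockout libraries by 1.063, 1.058 and 1.053. It thus raised control replicate 1 and lowered control replicate 3 about as much as the knockout libraries. This scaling left 0 members at that p (3.23% of all genes) and 1 without overlap, C2 (6.37% of all genes). A correction for gene length left 2, C3 and Fga (4.01% of all genes), and 6 without overlap (7.73% of all genes). The members' median stayed positive under each of these settings and was 0.13 with median-ratio scaling, where the median of all genes was -0.04.

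**Figure D2:**
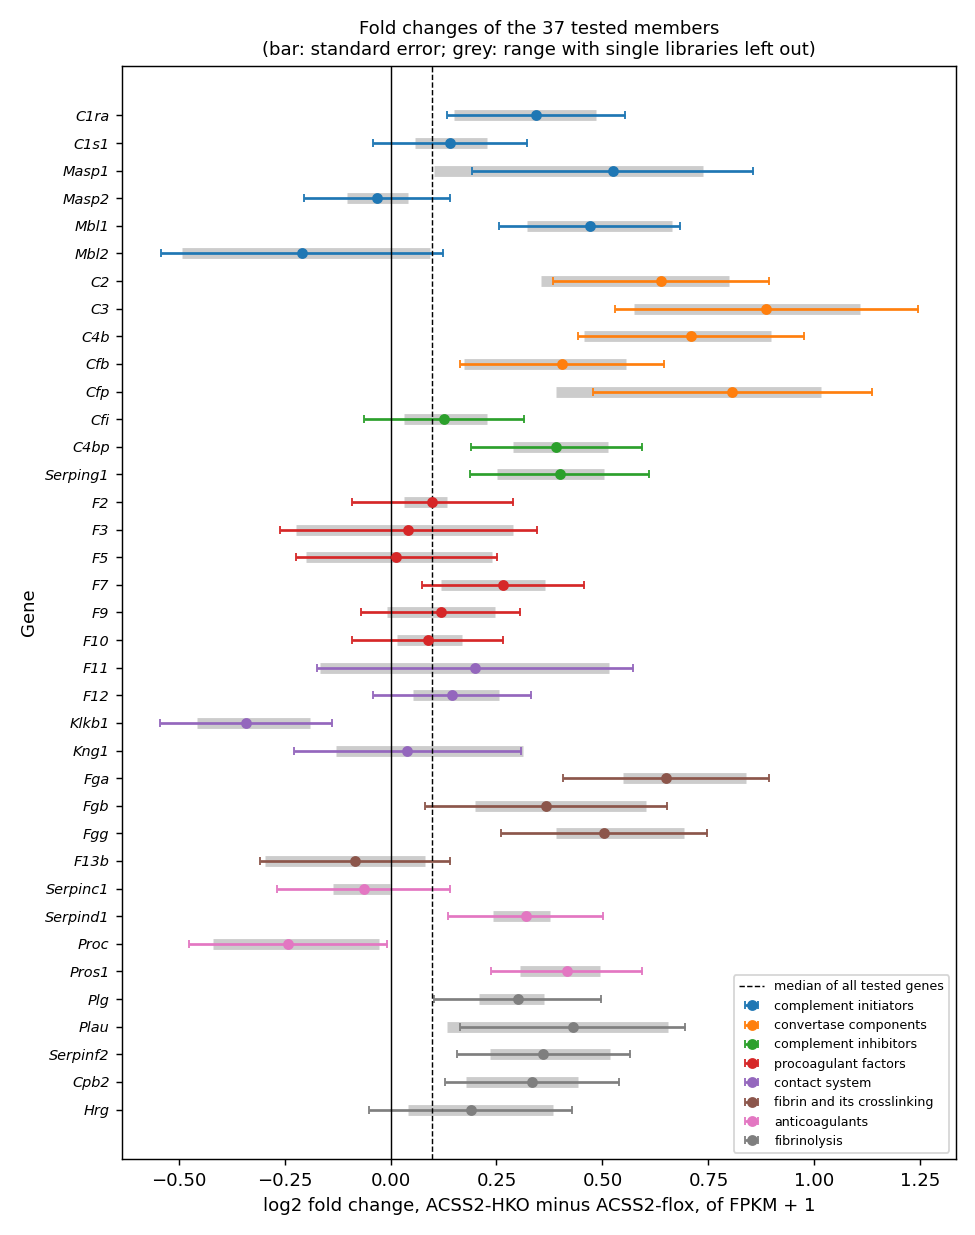
Points are log2 fold changes of FPKM + 1 for the 37 tested members, coloured by role, with bars for the standard error and grey bands for the range with libraries left out singly. The convertase components lie to the right of the dashed median of all genes (0.10). The procoagulant factors lie on or near it, with F7 the farthest at 0.27.

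Many of the members were abundant transcripts, and a few were scarce. By mean FPKM 9 of the 39 ranked in the top 100 of the table and 21 in the top 500, led by Fgb at rank 21 and C3 at rank 24, while F3, Plau, Plaur and Plat ranked 8166 or lower. Together the 39 took 3.91%, 4.12% and 3.63% of all fragments in control replicates 1, 2 and 3 and 4.40%, 5.08% and 6.54% in knockout replicates 1, 2 and 3. Most of the gap between the genotypes lay in 4 genes. C3 alone took 0.580%, 1.13% and 0.882% of fragments in control livers and 1.203%, 1.28% and 2.38% in knockout livers. Fibrinogen took 1.08%, 0.935% and 0.996% and then 1.06%, 1.59% and 1.67%. The other 35 genes took 2.25%, 2.055% and 1.76% in control livers and 2.14%, 2.21% and 2.49% in knockout livers, where the groups overlapped.

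Knockout replicate 3 held the highest value of 22 of the 37 tested members, where it held that of 21.3% of all tested genes. Control replicate 3 held the lowest value of 19, against 6.55% of all genes. Control replicate 1, lowest in 52.9% of all genes, was lowest in 11 members and highest in 9.

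**Figure D3:**
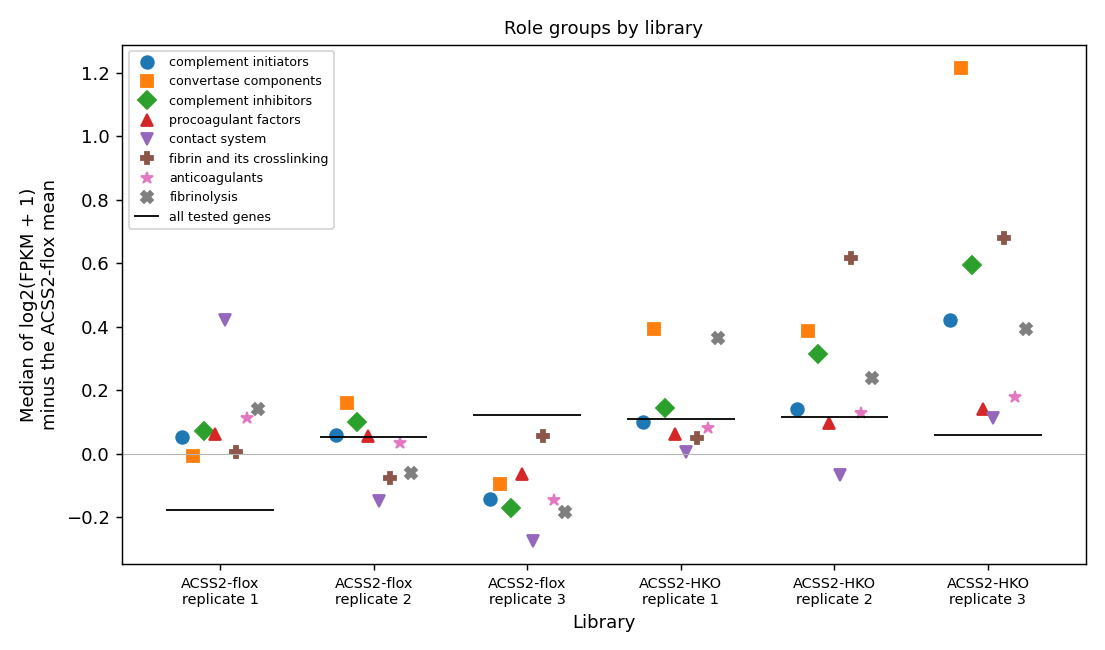
Each symbol is the median, over the tested members of a role group, of log2(FPKM + 1) minus the ACSS2-flox mean in 1 library; black bars mark the same for all tested genes. The convertase components reach 1.21 in ACSS2-HKO replicate 3, and the procoagulant factors stay between -0.06 and 0.14 in all 6 libraries.

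The convertase components had a median log2 fold change of 0.71 (5 of 5 positive, 4 without overlap, 4 at an unadjusted p under 0.05). The median was 0.39 without knockout replicate 3, with 0 at that p, and 0.31 without both distant libraries, with 1 at that p. It was the largest median of the role groups with all 6 libraries. Without both distant libraries it lay below those of fibrin and its crosslinking (0.41) and of the plasmin system (0.32). C3, the protein on which all complement routes converge, read 1114, 2174 and 1693 FPKM in control livers and 2310, 2458 and 4573 FPKM in knockout livers. Each knockout library lay above each control library, but knockout replicate 1 exceeded control replicate 2 only narrowly. The means were 1660 ± 531 and 3114 ± 1266 FPKM (SD, n = 3), with a log2 fold change of 0.89 ± 0.36 (SE; limma adjusted p = 0.637; exact permutation p = 0.1, the smallest that 3 against 3 allows). It was 0.57 without knockout replicate 3 and 0.31 without both distant libraries.

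C4b, the mouse C4 that feeds the classical and lectin convertase, read 167, 184 and 127 FPKM in control livers and 198, 237 and 367 FPKM in knockout livers. The groups did not overlap, and knockout replicate 3 was again the highest. Its log2 fold change was 0.71 ± 0.27, and 0.455 without that library. C2, the protease of the same convertase, read 25.1, 30.6 and 26.4 FPKM and then 36.1, 34.3 and 64.3 FPKM. It did not overlap either, also after median-ratio scaling, and its log2 fold change of 0.64 ± 0.25 was 0.36 without knockout replicate 3 and 0.30 without both distant libraries.

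For the alternative pathway, Cfb encodes the protease factor B and Cfp encodes properdin, which stabilises the convertase. Cfb read 421, 454 and 396 FPKM in control livers and 454, 502 and 771 FPKM in knockout livers. Knockout replicate 1 and control replicate 2 were within 1 FPKM of each other, so the groups touched, and the log2 fold change of 0.40 ± 0.24 was 0.17 without knockout replicate 3. Cfp read 32.9, 31.9 and 27.9 FPKM and then 40.8, 40.6 and 98.2 FPKM. Here knockout replicates 1 and 2 were nearly equal and replicate 3 far above them. Its log2 fold change was 0.81 ± 0.33, and 0.39 without knockout replicate 3.

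C2, Cfb and C4b lie near each other on chromosome 17, C4b from 34728139 to 34743902, Cfb from 34856374 to 34862514 and C2 from 34862602 to 34882100 (RefSeq, GRCm38, the assembly that mm10 names). C3 is on the same chromosome, from 57203967 to 57228136, and Cfp is on X. Whether reads of C2 and Cfb, whose ends nearly meet, were separated is unknown, since the sources used here do not give the counting method. C4b has a close copy, C4a, which is on the list of other complement genes but whose own values are not given here. The division of fragments between the copies is thus uncertain.

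Properdin and part of the C3 in liver also come from myeloid cells, and markers of these cells read higher in the same libraries. All 11 macrophage and Kupffer cell markers were tested and had positive log2 fold changes, 8 of them without overlap. Over all tested genes 66% were positive and 12.5% higher without overlap. The median log2 fold change of these markers was 0.91, and 0.42 without both distant libraries. With median-ratio scaling 6 of them were free of overlap (6.37% of all genes). Their summed level was 375, 586 and 498 FPKM in control livers and 750, 697 and 1722 FPKM in knockout livers. Of the 11 neutrophil markers 4 were tested, all without overlap, also with median-ratio scaling. The 11 summed to 17.9, 14.1 and 8.12 FPKM and then 39.3, 54.7 and 359 FPKM. In knockout replicate 3 most of this sum was S100a8 and S100a9, at 138 and 177 FPKM. Among the granule genes Mpo was at 0 in all 3 control libraries and in knockout replicate 1, and Camp was at 0 in control replicates 2 and 3 and knockout replicate 2. Hepatocyte markers summed to 87874, 59847 and 56771 FPKM in control livers and 57068, 52616 and 48269 FPKM in knockout livers. Most of each sum was Alb, at 59759 FPKM in control replicate 1 and 38187 FPKM in knockout replicate 3. Of the 8 hepatocyte markers 7 had negative log2 fold changes, and Cps1 was positive at 0.19. Only Alb was lower without overlap (2.94% of all genes). In bulk liver, more cells of a type and more RNA per cell cannot be told apart. The part of these cells in the complement values was not tested.

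**Figure D4:**
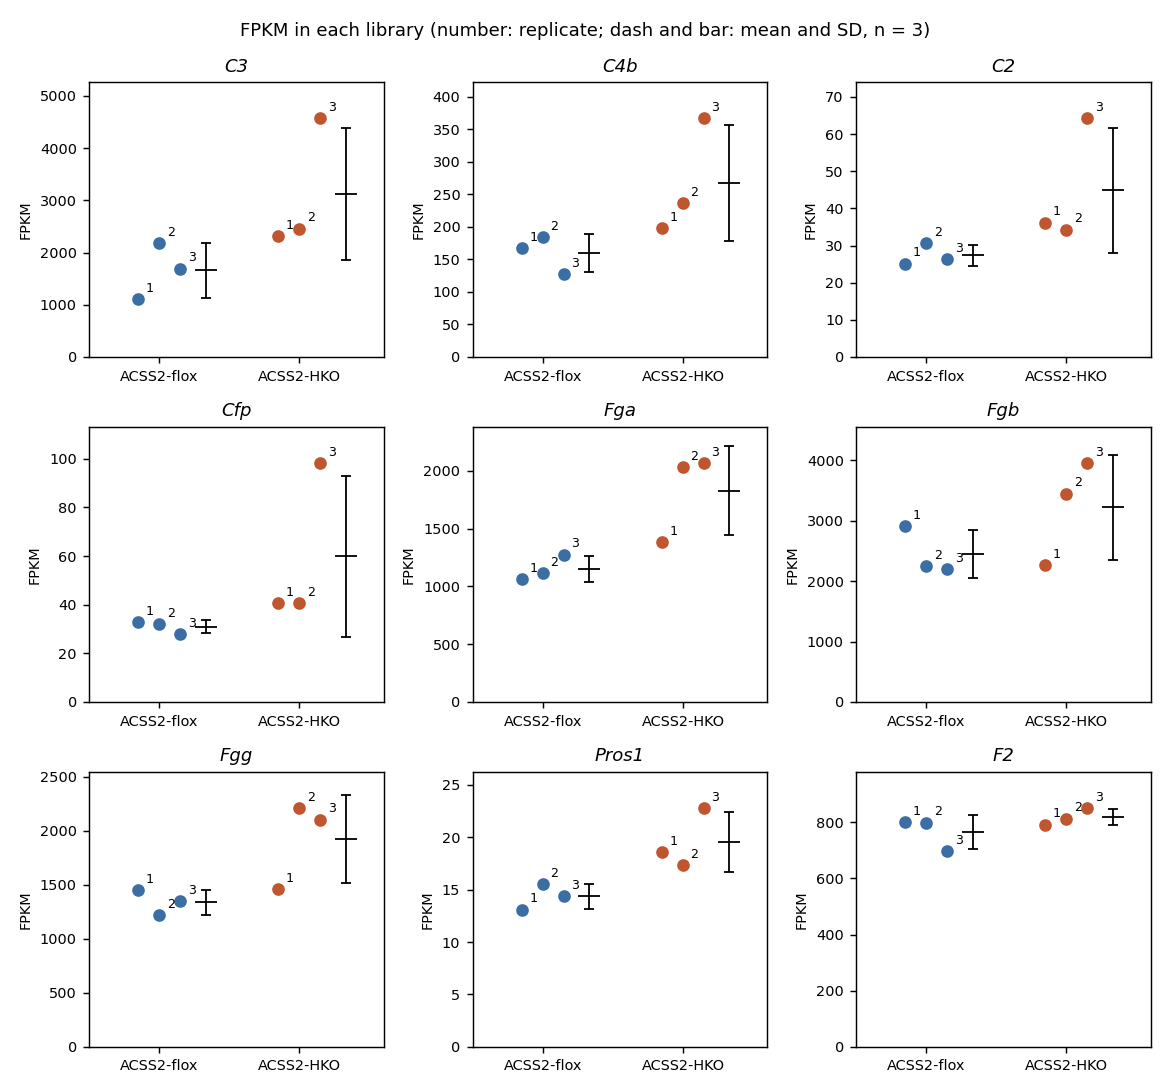
FPKM of 9 genes in each library (numbers are replicates), with dash and bar for mean and SD, n = 3, on axes that start at 0. C3, C4b, C2 and Cfp are highest in ACSS2-HKO replicate 3, the fibrinogen chains are high in ACSS2-HKO replicates 2 and 3, and F2 is level.

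The genes that start the classical and lectin pathways had a median log2 fold change of 0.24 (4 of 6 positive), and none was free of overlap. The median was 0.11 without knockout replicate 3 and 0.12 without control replicate 1. C1ra and C1s1, neighbours on chromosome 6, encode the paired proteases of C1. C1ra read 80.5, 88.0 and 80.7 FPKM in control livers and 98.4, 86.4 and 138 FPKM in knockout livers, and C1s1 read 133, 152 and 120 FPKM and then 144, 137 and 166 FPKM. For both, knockout replicate 2 lay below control replicate 2 and knockout replicate 3 was the highest. Their log2 fold changes were 0.34 ± 0.21 and 0.14 ± 0.18, and 0.15 and 0.06 without knockout replicate 3. C1s1 was at 0.06 without control replicate 3 too.

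Mbl1 and Mbl2 encode the mannose-binding lectins, and Masp1 and Masp2 the proteases that ride on them. Mbl1 read 29.1, 27.4 and 24.0 FPKM in control livers and 28.4, 40.0 and 46.1 FPKM in knockout livers, a log2 fold change of 0.47 ± 0.21. Mbl2, the more abundant, read 661, 422 and 292 FPKM and then 289, 506 and 360 FPKM, with no order between the groups and a log2 fold change of -0.21 ± 0.33 that was 0.09 without control replicate 1. The ratio of Mbl2 to Mbl1 in FPKM was 22.7, 15.4 and 12.2 in control livers and 10.2, 12.6 and 7.80 in knockout livers. Masp1 read 5.97 FPKM in control replicate 1 and 15.4 to 18.4 FPKM in the other 5 libraries. Its log2 fold change of 0.52 ± 0.33 was 0.10 without that library. Masp2 ran from 61.4 to 76.2 FPKM over all libraries (-0.03 ± 0.17).

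The complement inhibitors were positive in 3 of 3 cases, with a median of 0.39. Serping1 encodes the C1 inhibitor, which also restrains factor XII and kallikrein. It read 378, 386 and 319 FPKM in control livers and 410, 447 and 583 FPKM in knockout livers, without overlap, a log2 fold change of 0.40 ± 0.21 that was 0.25 without knockout replicate 3. C4bp, whose product helps to cut C4b, read 218, 265 and 211 FPKM and then 254, 312 and 348 FPKM, overlapping by 1 library (0.39 ± 0.20). Cfi, the protease that cuts C3b and C4b, ran from 278 to 365 FPKM in control livers and from 321 to 364 FPKM in knockout livers (0.13 ± 0.19). The ratio of C3 to Cfi in FPKM was 3.05, 6.90 and 6.09 in control livers and 7.19, 6.91 and 12.6 in knockout livers.

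Fibrinogen is a hexamer of paired alpha, beta and gamma chains, encoded by Fga, Fgb and Fgg side by side on chromosome 3 (Fgg from 83007724 to 83015056, Fga from 83026153 to 83033627 and Fgb from 83042246 to 83049863). The bases before their start sites are shown because the 3 chains read high in the same libraries, and those of C3 because it is the most abundant of the complement members. Each is taken from the 250 bases before the RefSeq start (GRCm38.p6), 5′ to 3′ on the gene's strand. Fga is chr3:83025903-83026075 on the plus strand, Fgb chr3:83049864-83050113 on the minus strand, Fgg chr3:83007474-83007723 on the plus strand and C3 chr17:57228137-57228386 on the minus strand. The last 77 bases of the Fga window are left out, since a GENCODE transcript of Fga begins there. Capitals mark matches, on either strand, to the interleukin-6 response core CTGGGA, the STAT consensus TTCNNNGAA, the C/EBP motif TTGCNNAA or the HNF1 half-site GTTAAT.
Fga: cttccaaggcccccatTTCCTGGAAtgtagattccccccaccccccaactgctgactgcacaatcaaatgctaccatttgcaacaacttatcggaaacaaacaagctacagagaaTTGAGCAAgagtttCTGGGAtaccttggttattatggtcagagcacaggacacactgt
Fgb: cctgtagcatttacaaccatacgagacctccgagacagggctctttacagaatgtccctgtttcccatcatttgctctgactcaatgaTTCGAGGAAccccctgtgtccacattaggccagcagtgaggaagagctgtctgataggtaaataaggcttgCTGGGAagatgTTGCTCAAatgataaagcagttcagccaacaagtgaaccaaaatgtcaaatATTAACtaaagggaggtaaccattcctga
Fgg: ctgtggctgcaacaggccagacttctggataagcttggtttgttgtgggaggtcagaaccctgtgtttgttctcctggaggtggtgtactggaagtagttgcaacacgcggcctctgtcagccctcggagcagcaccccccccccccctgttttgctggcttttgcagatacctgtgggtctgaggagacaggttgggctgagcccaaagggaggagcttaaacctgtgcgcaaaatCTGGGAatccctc
C3: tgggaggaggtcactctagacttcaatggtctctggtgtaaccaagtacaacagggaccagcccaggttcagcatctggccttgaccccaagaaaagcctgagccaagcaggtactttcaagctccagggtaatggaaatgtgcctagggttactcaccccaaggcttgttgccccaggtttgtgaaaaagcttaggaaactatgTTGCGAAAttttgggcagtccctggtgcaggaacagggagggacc

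CTGGGA was present in all 3 fibrinogen windows, beginning 121 bases before the start in Fga, 91 in Fgb and 13 in Fgg. Fga and Fgb each held all 4 motifs (GTTAAT of Fga lies in the bases left out), Fgg held CTGGGA alone and C3 held TTGCNNAA alone, 45 bases before its start. The search left out chromosome 18, which holds Proc. On the other chromosomes windows were found for 28 of the 39 members (29 windows), among 32851 windows of the reference. There was none for C2, C4b, Cfb, Cfi, Masp1, Serping1, Kng1, Plg, Plat and Plau, so most convertase genes are missing from the shares below. C1s1 had overlapping windows that hold the same CTGGGA, and each was counted. CTGGGA was in 48.3% of the members' windows and 27% of all, TTCNNNGAA in 17.2% and 7.02%, TTGCNNAA in 31% and 9.56%, and GTTAAT in 20.7% and 6.43%. GTTAAT is also part of the full palindromic HNF1 site, which was in 0 member windows and 0.00913% of all. The interleukin-6 response core was found in windows of 13 members. Besides the fibrinogen genes these were C1ra, C1s1, C4bp, F9, F10, Klkb1, Masp2, Mbl1, Pros1 and Serpind1. Of these, Klkb1 and Masp2 had negative log2 fold changes, -0.34 and -0.03. The windows of C3 and Cfp, which read higher without overlap, lacked this core. Whether the core goes with a higher level was not tested. Members are liver genes and the comparison holds all genes, and a match is a string of letters, not a bound site.

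In knockout livers the fibrinogen transcripts were higher in replicates 2 and 3, while replicate 1 lay near the controls. Fga read 1060, 1113 and 1275 FPKM in control livers and 1382, 2035 and 2068 FPKM in knockout livers, without overlap, and its log2 fold change was 0.65 ± 0.24 (adjusted p = 0.637 by limma). Fgg read 1449, 1218 and 1345 FPKM and then 1456, 2209 and 2103 FPKM. Its groups were separated by a narrow gap, with knockout replicate 1 just above control replicate 1, and its log2 fold change was 0.50 ± 0.24. Fgb, the most abundant member, read 2910, 2247 and 2195 FPKM and then 2259, 3449 and 3953 FPKM, so that knockout replicate 1 lay inside the range of the controls (0.37 ± 0.29). Without both distant libraries the log2 fold changes of Fga, Fgg and Fgb were 0.49, 0.49 and 0.33. Without knockout replicate 3 alone they were 0.55, 0.43 and 0.20.

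The ratio of the chains was steadier than their level, apart from control replicate 1. Fga stood to Fgb in FPKM as 0.364, 0.495 and 0.581 in control livers and 0.612, 0.59 and 0.523 in knockout livers. Fgg stood to Fgb as 0.498, 0.542 and 0.613 and then 0.644, 0.641 and 0.532. F13b encodes the carrier subunit of factor XIII, which crosslinks fibrin. It did not share the level of the fibrinogen chains, reading 58.9, 100.2 and 85.2 FPKM in control livers and 77.9, 80.1 and 67.7 FPKM in knockout livers (-0.08 ± 0.22).

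The procoagulant factors had a median log2 fold change of 0.09, near that of all genes, and of -0.08 after median-ratio scaling. On the deposited scale 6 of 6 were positive, up to 0.27 for F7. F2, which encodes prothrombin, read 801, 799 and 697 FPKM in control livers and 792, 813 and 851 FPKM in knockout livers (0.10 ± 0.19). F10 encodes factor X, the protease that activates prothrombin, and ran from 194 to 216 FPKM and from 198 to 244 FPKM. F9, the X-linked factor IX gene, ran from 64.0 to 91.6 FPKM and from 78.3 to 87.6 FPKM. The groups overlapped for all 3, and F9, F2 and F10 turned negative with median-ratio scaling, as did F5 and F3.

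F7, which starts the extrinsic route with tissue factor, read 39.9, 47.6 and 45.0 FPKM and then 46.3, 49.7 and 65.3 FPKM (0.27 ± 0.19, and 0.12 without knockout replicate 3). F5, the cofactor of factor X, read 64.5, 119 and 85.4 FPKM in control livers and 93.3, 88.9 and 81.3 FPKM in knockout livers (0.01 ± 0.24), the controls spanning all knockout values. F3 encodes tissue factor, a membrane protein made mainly outside hepatocytes. It was low, at 3.23, 1.07 and 2.07 FPKM and then 3.27, 1.71 and 1.54 FPKM, from 75 to 217 fragments a library, with no order between the groups.

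The contact system had a median of 0.09 (3 of 4 positive, none without overlap), and of -0.09 without knockout replicate 3. F12, whose product starts contact activation, ran from 200 to 266 FPKM in control livers and from 244 to 267 FPKM in knockout livers (0.15 ± 0.19). Kng1 encodes kininogen, the source of bradykinin, and read 1323, 785 and 719 FPKM and then 921, 890 and 990 FPKM (0.04 ± 0.27). Control replicate 1 was the highest of all, and the log2 fold change of Kng1 was 0.31 when it was left out.

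F11 and Klkb1, neighbours on chromosome 8, encode the related zymogens factor XI and prekallikrein. F11 read 28.4, 14.5 and 13.9 FPKM in control livers and 17.8, 14.1 and 35.2 FPKM in knockout livers (0.20 ± 0.37), high in the 2 distant libraries alone, and was at -0.17 without knockout replicate 3. Klkb1 read 74.7, 56.8 and 52.0 FPKM and then 44.0, 56.0 and 43.5 FPKM. It had the lowest log2 fold change of the members, -0.34 ± 0.20 (limma adjusted p = 0.697), with a single knockout library inside the range of the controls, and was at -0.19 without control replicate 1. Of the 6 members with a negative log2 fold change it alone stayed negative in all alternatives run. In knockout replicate 3 the neighbours thus differed, F11 at its highest value and Klkb1 at its lowest.

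Among the anticoagulants the members split, 2 positive and 2 negative. Pros1 encodes protein S, the cofactor of activated protein C, and read 13.1, 15.6 and 14.4 FPKM in control livers and 18.6, 17.3 and 22.8 FPKM in knockout livers. Its groups did not overlap, and its log2 fold change was 0.42 ± 0.18 (limma adjusted p = 0.649), or 0.25 without both distant libraries. Serpind1, the gene of heparin cofactor II, read 289, 277 and 244 FPKM and then 327, 310 and 374 FPKM, also without overlap (0.32 ± 0.18). Proc encodes protein C itself and read 314, 221 and 182 FPKM and then 214, 202 and 176 FPKM (-0.24 ± 0.23). The high control value was that of control replicate 1, and leaving it out gave a log2 fold change of -0.03, or 0.05 with both distant libraries out. Serpinc1, the gene of antithrombin, ran from 1120 to 1353 FPKM and from 1134 to 1285 FPKM (-0.06 ± 0.20).

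The plasmin system had a median of 0.33 over its 5 tested genes, all positive. Plg, which encodes plasminogen, read 776, 743 and 627 FPKM in control livers and 873, 831 and 931 FPKM in knockout livers, without overlap. Its log2 fold change was 0.30 ± 0.20, and 0.32 without both distant libraries. Serpinf2 encodes alpha-2-antiplasmin, the inhibitor of plasmin. It read 360, 277 and 242 FPKM and then 373, 363 and 380 FPKM, also without overlap and with close values in knockout livers (372 ± 8.62 FPKM, SD, n = 3). Its log2 fold change was 0.36 ± 0.20, and 0.23 without control replicate 3. On the deposited scale plasminogen and its inhibitor thus both read higher in the knockout libraries. With median-ratio scaling their log2 fold changes were 0.13 and 0.19. Control replicate 1 was then the highest library for both, at 994 and 461 scaled FPKM.

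Cpb2 encodes the carboxypeptidase that protects fibrin from plasmin, and read 267, 228 and 233 FPKM and then 263, 286 and 379 FPKM (0.33 ± 0.21), overlapping by 1 library. Cpb2 was at 0.18 without knockout replicate 3. Hrg, the histidine-rich glycoprotein gene, read 798, 571 and 495 FPKM and then 789, 610 and 695 FPKM (0.19 ± 0.24, and 0.04 without control replicate 3 or 0.10 without knockout replicate 1). The activators of plasminogen were scarce. Plau, the urokinase gene, read 0.246, 1.08 and 1.57 FPKM in control livers and 1.54, 1.31 and 1.77 FPKM in knockout livers, and its log2 fold change of 0.43 ± 0.27 was 0.13 without control replicate 1.

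Plat, the tissue plasminogen activator gene, was under the filter at 0.0781, 0.101 and 0.226 FPKM and then 0.149, 0.147 and 0.782 FPKM, between 7 and 82 fragments a library. Plaur, the urokinase receptor gene, was under it too, at 0.590, 1.16 and 0.418 FPKM and then 1.02, 0.393 and 1.27 FPKM. For both, the values of the groups overlapped. Knockout replicate 3 was the highest for Plau, Plat and Plaur.

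**Figure D5:**
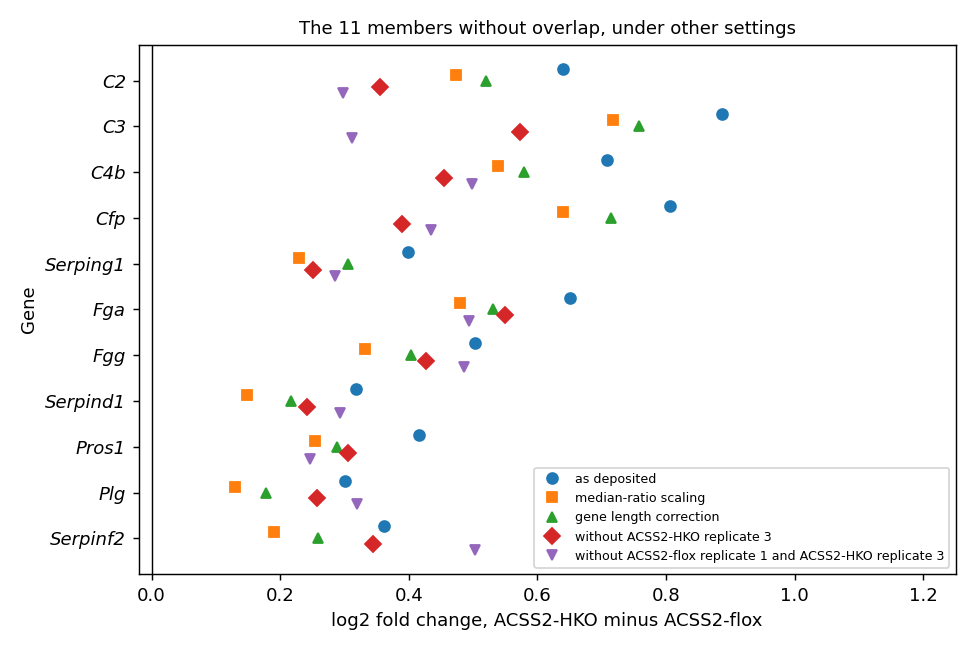
Log2 fold changes of the 11 members without overlap between the groups, under the deposited scale and 4 other settings, on an axis from about 0. All symbols lie above 0, those of C3, C2 and Cfp spread most, and those of Fga lie between 0.48 and 0.65.

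The rest of the pathway was read from 2 further lists. Of 22 tested genes among 31 other complement genes of the table, 15 were positive, with a median of 0.36, with 9 above and 0 below control at an unadjusted p under 0.05 (6.09% and 1.5% of all genes). The 9 became 2 without knockout replicate 3, 2 without control replicate 1, 3 (and 1 below) without both, and 1 with median-ratio scaling. The median was 0.20 without knockout replicate 3 and 0.17 without both. C1qc and C1qb, chains of the C1q recognition protein, had log2 fold changes of 0.98 ± 0.31 and 0.94 ± 0.32, and 0.61 and 0.55 without knockout replicate 3. C1q is made by macrophages, and 4 genes of this list (C1qa, C1qb, C1qc and Vsig4) are also on the macrophage list. Cpn2, a subunit of the carboxypeptidase that trims anaphylatoxins, had 0.44 ± 0.17. Cd59b, Cpn1 and Colec10 had -0.33 ± 0.18, -0.25 ± 0.21 and -0.39 ± 0.33, with overlap.

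Of 21 tested genes among 35 others of coagulation and fibrinolysis, 17 were positive, with a median of 0.26, with 3 above and 0 below control at the same unadjusted p. The median was 0.14 without knockout replicate 3, 0.17 without control replicate 1, 0.10 without both and 0.09 with median-ratio scaling. Without both, 13 were positive, beside 5419 of all 9818 tested genes. Without overlap 8 were then higher and 4 lower, beside 2294 and 1733 of all tested genes. Anxa2, which encodes a surface protein that gathers plasminogen and its activator, read 6.69, 7.90 and 14.1 FPKM in control livers and 30.6, 16.6 and 24.97 FPKM in knockout livers. Its log2 fold change of 1.27 ± 0.31 (limma adjusted p = 0.554) was 1.02 without both distant libraries. S100a10, its partner subunit, had 0.42 ± 0.21, with knockout replicate 3 inside the range of the controls. Serpina10, the inhibitor that acts with protein Z on factor X, had 0.62 ± 0.22, and Ggcx, the carboxylase that matures the vitamin K-dependent factors, had 0.52 ± 0.18, both without overlap. Tfpi2, Vkorc1, Hgfac and Habp2 had -0.38 ± 0.21, -0.22 ± 0.23, -0.15 ± 0.20 and -0.04 ± 0.18, all with overlap.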

How the data were processed

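Whole-liver RNA of 6 libraries was sequenced, and the authors deposited 1 FPKM value per gene and library; the submitters' processing notes name the build mm10. Per the submitters' processing notes the authors' tools also include DESeq2, with no step named. For the aligner, counter, annotation and filters: not given in the sources used here. Each column was matched to its sample by title, and groups follow the genotype label.

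Whole fragment counts and gene lengths were recovered from the FPKM values for 16102 of 16135 genes (tolerance 0.01 fragments). Between 99.2% and 99.4% of each total lay in genes of the table. Because FPKM is relative to the total, abundant genes can lower the rest.

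Genes whose mean reached 1 FPKM were tested on log2(FPKM + 1) with limma 3.58.1 in R 4.3.3 (lmFit, eBayes with trend), two-sided, Benjamini-Hochberg adjusted over all tested genes at 0.05. Adding 1 shrinks the fold changes of low genes. The log2 fold change is ACSS2-HKO minus ACSS2-flox, and ± after it is its standard error. Single genes also had a two-sided exact permutation test over the 20 arrangements. The limma step was also run on simulated counts without distant libraries, which does not show how it performs on these data. The members and lists were chosen with earlier results of these data known. Named are all 39 members, Acss2, and up to 4 genes of smallest p per direction of each further list. Some genes that this rule names are not reported here. Coordinates and promoters are from RefSeq, GRCm38.p6. Alternatives were other pseudocounts (0.1 and 5), filters, scalings, a gene length correction (loess, span 0.5), other variance models, voom on recovered fragments, a replicate block, and libraries left out.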

Additional observations from a re-analysis of the deposited data

How the results depend on the processing

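Of the 37 tested members, 22 kept the sign of their log2 fold change under every alternative run, 21 of them positive and Klkb1 negative, and no member passed the adjusted threshold in any. Over all genes, 0 passed it, but 4 did with the replicate block and up to 3 with a library left out (range 0 to 3; 3 without ACSS2-HKO replicate 2). No pairing of the libraries by replicate number was visible. Same-numbered deviations from the group means correlated at 0.0132, 0.0032 and -0.0627, and not every library correlated best with its own number. With 3 libraries a group, these correlations cannot exclude a pairing. With the block 4 members were higher at an unadjusted p under 0.05, against 6.

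Genes higher at an unadjusted p under 0.05 were 917 without a filter, 311 at a mean of 5 FPKM, 317 with median-ratio scaling, 391 with quantile normalization and 394 with the length correction, against 598. With the last 3 settings the lower genes were 347, 357 and 393, against 147. Genes without overlap were 646 (5 FPKM), 625, 710 and 759 higher, against 1232, and 751, 718 and 763 lower, against 289. Members at that p were 0 with median-ratio scaling and 2 with the length correction, and members without overlap 1 and 6. The members' median was 0.13 with median-ratio scaling.

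With libraries left out, singly or both distant ones, the ranges were 282 to 579 genes higher and 74 to 460 lower at that p, 1625 to 2294 without overlap higher and 340 to 1733 lower. For members they were 0 to 7 higher at that p, 11 to 19 without overlap higher and 0 to 2 lower.

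The median of all genes turned to -0.0385, -0.0166 and -0.0130 with median-ratio scaling, quantile normalization and length correction. Group medians turned for the procoagulant factors (-0.0769 with median-ratio scaling, -0.0232 with length correction), the contact system (-0.0776 and -0.0116; with libraries left out -0.0853 to 0.182) and the anticoagulants (-0.0423 with median-ratio scaling). With median-ratio scaling C1s1 (-0.0297), Cfi (-0.0438), F2 (-0.0715), F3 (-0.0858), F5 (-0.155), F9 (-0.0505), F10 (-0.0822), F12 (-0.0246) and Kng1 (-0.131) turned negative. With length correction F2 (-0.0139), F3 (-0.0530), F5 (-0.108), F9 (-0.00652), F10 (-0.0325) and Kng1 (-0.0713) did. TPM turned Masp2 (0.0103) and Habp2 (0.00767), and quantile normalization F3 (-0.119) and Serpinc1 (0.0140). The ranges of genes whose sign turned with libraries left out were -0.103 to 0.05 (Masp2), -0.493 to 0.123 (Mbl2), -0.224 to 0.429 (F3), -0.199 to 0.238 (F5), -0.00921 to 0.246 (F9), -0.167 to 0.517 (F11), -0.128 to 0.311 (Kng1), -0.297 to 0.0811 (F13b), -0.137 to 0.024 (Serpinc1), -0.418 to 0.05 (Proc), -0.369 to 0.018 (Cpn1), -0.323 to 0.0897 (Vkorc1), -0.123 to 0.0836 (Habp2). Without both distant libraries Masp2 was 0.04996, Mbl2 0.124, F5 -0.146, Serpinc1 0.0240, Proc 0.05003, Cpn1 0.0180 and Vkorc1 0.0898. The causes were not tested. With 3 libraries a group, standard errors of the members ran from 0.173 to 0.373 on the log2 scale, which limits what could be called.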
